A study of Mus musculus with 12 samples.

Results

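The genes followed here are 38 enzymes and regulators of central carbon metabolism, covering glycolysis, the pentose phosphate pathway, pyruvate entry into mitochondria and the citrate cycle, together with the hypoxia regulator Hif1a. They were chosen by name and found by the mouse symbol of the Ensembl identifier in count tables of 54838 genes, and all 38 were found and passed the filter on low counts. RNA was sequenced from cells of the adult spinal cord enriched for oligodendroglia on a Percoll density gradient, in 12 libraries from P60 mice. Control mice had the genotype Olig1+/+;Tet1fl/fl, and the Tet1 mutants carried 1 cre allele in addition (Olig1cre/+;Tet1fl/fl). Both were studied in unlesioned tissue and at 4 days post lesion (4dpl) with lysolecithin (LPC), a detergent-like lipid that strips myelin where it is injected. Each of the 4 groups had 3 libraries. Both genotypes carry the floxed Tet1 allele, and cre is driven from the Olig1 locus, so that the deletion is directed to the oligodendrocyte lineage, while the RNA comes from all cells that the gradient retains. Unlesioned tissue was taken from the side of the cord opposite to the injection.

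Glycolysis splits glucose into pyruvate in the cytosol and yields a little ATP, and lactate dehydrogenase recycles the NADH it makes. The pentose phosphate pathway branches off at glucose-6-phosphate and supplies NADPH and ribose, while pyruvate dehydrogenase passes carbon into the citrate cycle, which feeds respiration. In white matter, oligodendrocytes are known to release lactate and pyruvate to axons, and activated myeloid cells are known to alter their glucose use.

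Levels are given as CPM, read counts scaled to the size of the library after TMM normalization, in the order of replicates 1 to 3 of each group. Total counts per library lay between 34805086 and 67251544. Markers in the preparation showed a mixture of cells. The summed level of 12 oligodendrocyte genes was between 15140 and 72930 CPM, and the 6 neutrophil genes alone summed to between 18760 and 105100 CPM. The oligodendrocyte sum was 18020 to 22010 CPM in unlesioned and 25090 to 35900 CPM in 4dpl control libraries. In the mutant it was 15140 to 30080 and 27100 to 72930 CPM. The sum of 3 erythroid genes was 9600 to 80720 CPM, and that of 8 infiltrating and border macrophage genes 6479 to 25240 CPM. No listed neutrophil, microglia or oligodendrocyte marker was at 0 in every library. The neutrophil sum was 41900 to 90790 CPM in unlesioned and 25460 to 30860 CPM in 4dpl control libraries, and 25990 to 105100 and 18760 to 95120 CPM in the mutant, whereas the sum of 11 microglia and macrophage genes was 5798 to 9193 and 13880 to 20680 CPM in the control, and 4821 to 10970 and 12970 to 17260 CPM in the mutant. Mutant unlesioned replicate 2 had the lowest oligodendrocyte sum and mutant 4dpl replicate 3 the highest. Tet1 itself, counted over the whole gene so that loss of the floxed exon is not resolved, had medians of 15.0 and 12 CPM in the control, unlesioned and at 4dpl, and 12.1 and 13.4 CPM in the mutant. In such bulk RNA, fewer cells of a type and less RNA per cell cannot be told apart, and the p-values below measure only the spread between these libraries.

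The lesion was compared with unlesioned tissue over both genotypes. A gene was called at a p-value of 0.01 together with a Benjamini-Hochberg adjusted p-value of 0.05 over the 31109 genes tested in one edgeR quasi-likelihood fit. Of the 38 genes, 19 were called higher at 4dpl and 0 lower. Most of the calls were in the citrate cycle (7 of 8 genes), pyruvate dehydrogenase and its kinase (3 of 3) and the upper part of glycolysis (5 of 7), and the others were Pgam1, Ldhb, Pfkfb3 and Hif1a. In contrast, 0 of 6 pentose phosphate genes and 0 of 3 hexokinases were called higher. The count, and the counts of other pathway genes given below, have to be read against a general shift. In the same comparison 14.2% of all genes tested were called higher and 18.6% lower. Of the 9673 genes with a mean of at least 10 CPM, 40.9% were called higher and 0.445% lower. Of the 37 genes followed here with at least 10 CPM, 51.4% were called higher. At an unadjusted p-value under 0.05 there were 26 of the 38 and 52.0% of all genes. The median log2 fold change was 0.57 over the 38 genes, 0.47 over genes with at least 10 CPM and -0.28 over all genes tested. The rises of Pfkm and Aldoa depended on single libraries, being called in 4 and 5 of the 12 fits with a library left out. Without TMM scaling the median was 0.18 over the 38 genes and -0.69 over all genes. In that fit 6 of the 38 were called higher, namely Hif1a, Pdk1, Pfkl, Tpi1, Idh1 and Idh3a, as were 2.56% of all genes. Called lower were 1 of the 38 and 28.6% of all genes. With at least 10 counts in every library the median of the 38 was 0.28.

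**Figure D1:**
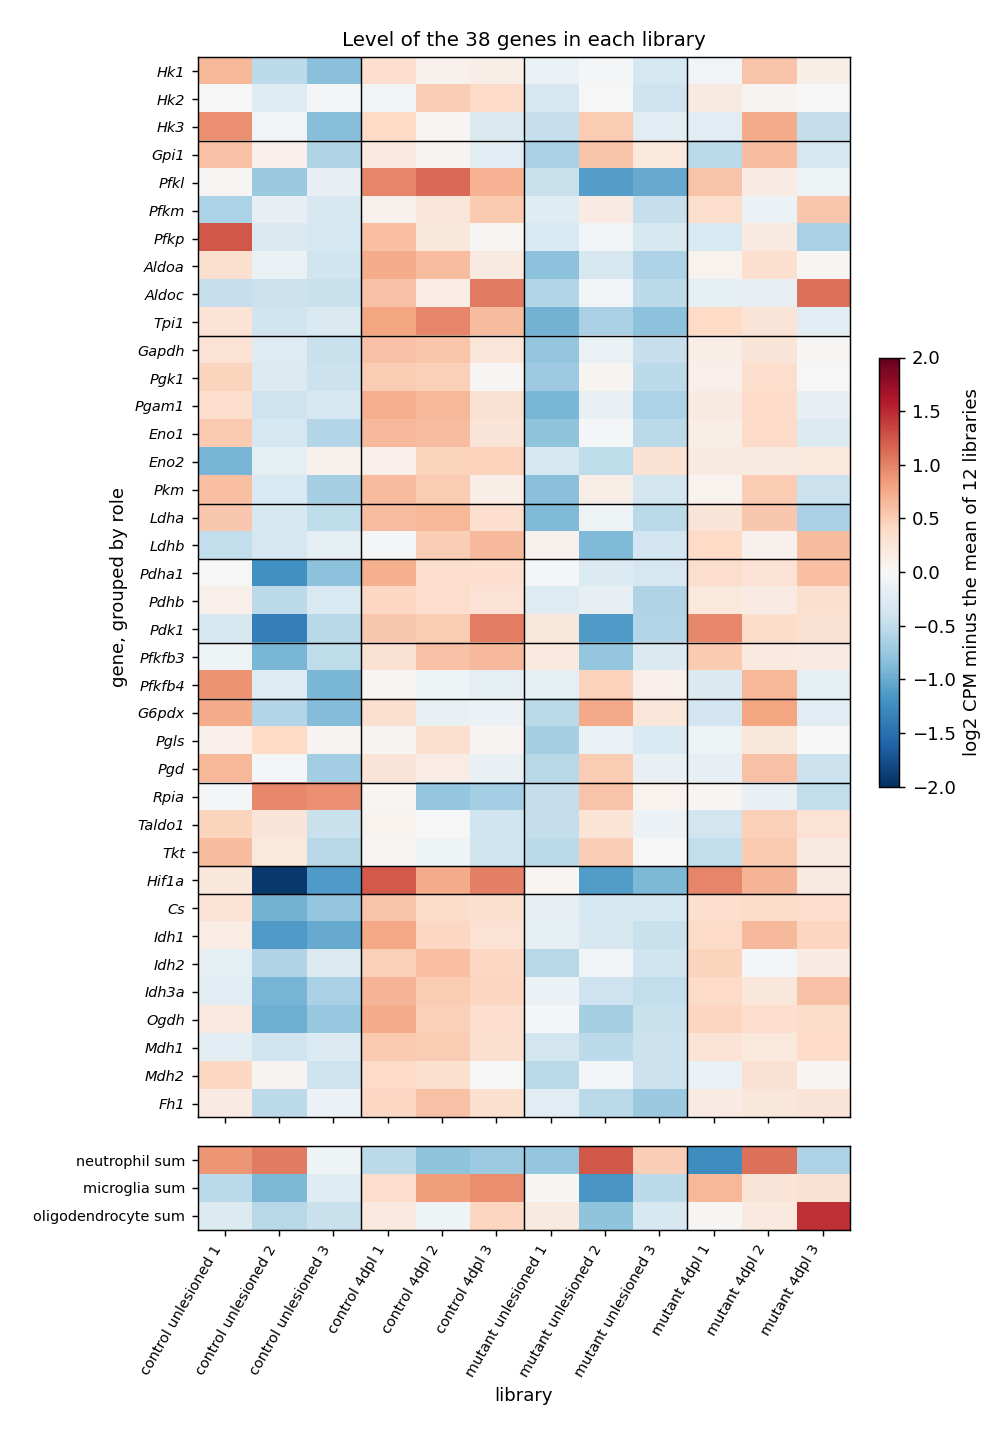
Level of each of the 38 genes (rows, grouped by role) in each of the 12 libraries (columns), as log2 CPM minus the gene's mean over the 12 libraries, with the summed neutrophil, microglia and oligodendrocyte markers below on the same colour scale. The rows of Idh3a, Ogdh and Mdh1 are red in the 6 libraries at 4dpl, while those of G6pdx, Pgd and Tkt are darkest red in control unlesioned replicate 1, mutant unlesioned replicate 2 and mutant 4dpl replicate 2.

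In the citrate cycle, Idh3a, a catalytic subunit of the NAD-dependent isocitrate dehydrogenase, had the smallest p-value of all 38 genes. Idh3a lies on chromosome 9 of GRCm38 from 54586334 to 54604661. It was at 45.0, 27.8 and 33.8 CPM in unlesioned and 84.8, 74.8 and 71.3 CPM in 4dpl control libraries, and at 48.8, 39.7 and 37.7 and 68.8, 62.0 and 78.8 CPM in the mutant. Every library at 4dpl thus lay above every unlesioned library. The log2 fold change of Idh3a over both genotypes was 0.92 with a standard error of 0.16 (edgeR, adjusted p = 0.00284).

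Mdh1, the cytosolic malate dehydrogenase of the malate-aspartate shuttle, varied little among replicates. It was at 146, 129 and 141 CPM in unlesioned and 244, 242 and 211 CPM in 4dpl control libraries, and at 131, 118 and 127 and 205, 196 and 220 CPM in the mutant. The 2 conditions did not overlap, and Mdh1 rose by a log2 fold change of 0.74 (standard error 0.14, edgeR adjusted p = 0.00377). Its mitochondrial counterpart Mdh2 was not called, with a log2 fold change of 0.29 (standard error 0.18), and its libraries overlapped between conditions.

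The NADP-dependent isocitrate dehydrogenases followed the same order. Idh1, the cytosolic form, was at 154, 63.0 and 69.0 CPM in unlesioned and 237, 184 and 169 CPM in 4dpl control libraries, and at 121, 111 and 102 and 181, 216 and 185 CPM in the mutant. Control unlesioned replicate 1 stood above the other unlesioned libraries but below all those at 4dpl, and Idh1 rose by 0.92 on the log2 scale (standard error 0.22, edgeR adjusted p = 0.00753). Idh2, the mitochondrial form, was at 64.1, 48.2 and 60.1 CPM in unlesioned and 101, 110 and 96.8 CPM in 4dpl control libraries. In the mutant Idh2 was at 49.7, 70.4 and 55.0 CPM unlesioned and at 98.6, 71.2 and 81.1 CPM at 4dpl, where replicate 2 was within 1 CPM of the highest unlesioned library. Idh2 rose by 0.68 (standard error 0.15, edgeR adjusted p = 0.00646).

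Ogdh, the 2-oxoglutarate dehydrogenase, was at 204, 91.1 and 105 CPM in unlesioned and 298, 248 and 226 CPM in 4dpl control libraries, and at 174, 112 and 132 and 241, 225 and 230 CPM in the mutant. Fh1, the fumarase, was at 42.3, 26.1 and 34.6 CPM in unlesioned and 50.3, 56.9 and 47.0 CPM in 4dpl control libraries, and at 32.5, 26.1 and 22.6 and 42.5, 44.1 and 45.2 CPM in the mutant. Neither gene overlapped between conditions, by a narrow margin for Fh1, with log2 fold changes of 0.84 for Ogdh (standard error 0.21, edgeR adjusted p = 0.00921) and 0.64 for Fh1 (standard error 0.16, edgeR adjusted p = 0.00824). Cs, the citrate synthase that admits acetyl-CoA, rose by 0.72 (standard error 0.20).

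The 16 other citrate cycle and malic enzyme genes showed 13 called higher and 0 lower, with a median log2 fold change of 0.75. Sdhc, an anchor subunit of succinate dehydrogenase, rose by 0.76 (standard error 0.13), and Suclg2, a subunit of succinate-CoA ligase, by 1.10 (standard error 0.20). Me3, a mitochondrial malic enzyme, had a log2 fold change of -0.90 and was not called.

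At the entry to the cycle, all 3 genes of pyruvate dehydrogenase and its kinase were called. Pdk1, the kinase that switches pyruvate dehydrogenase off, lies on chromosome 2 from 71873224 to 71903858. It was at 43.6, 21.1 and 37.0 CPM in unlesioned and 79.2, 77.0 and 110 CPM in 4dpl control libraries, and at 63.5, 24.8 and 36.2 and 105, 70.3 and 67.1 CPM in the mutant. Pdha1, the catalytic alpha subunit that Pdk1 phosphorylates, was at 57.8, 24.7 and 32.5 CPM in unlesioned and 93.4, 73.4 and 72.1 CPM in 4dpl control libraries, and at 56.0, 47.4 and 45.5 and 73.2, 70.3 and 87.1 CPM in the mutant. Enzyme and inhibitor thus both rose, Pdk1 by 1.18 on the log2 scale (standard error 0.25, edgeR adjusted p = 0.00519) and Pdha1 by 0.84 (standard error 0.20, edgeR adjusted p = 0.00721). Pdhb, the beta subunit, rose by 0.57 (standard error 0.15).

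Of the 9 other genes of the complex and its regulators, 6 were called higher and 0 lower. Dlat, which carries the acetyl group, rose by 0.89 (standard error 0.17). The list again held both directions of control, Pdk4, another kinase, rising by 1.08 and Pdp1, a phosphatase that reactivates the enzyme, by 0.96.

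The libraries of 10 of the 38 genes did not overlap between conditions over both genotypes, all 6 at 4dpl lying above all 6 unlesioned. These were 7 citrate cycle genes and the 3 of pyruvate dehydrogenase and its kinase, while Mdh2 and the genes of the other roles overlapped. The share was 27.0% of those with at least 10 CPM, against 7.44% of all genes tested and 21.8% of genes with at least 10 CPM.

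**Figure D2:**
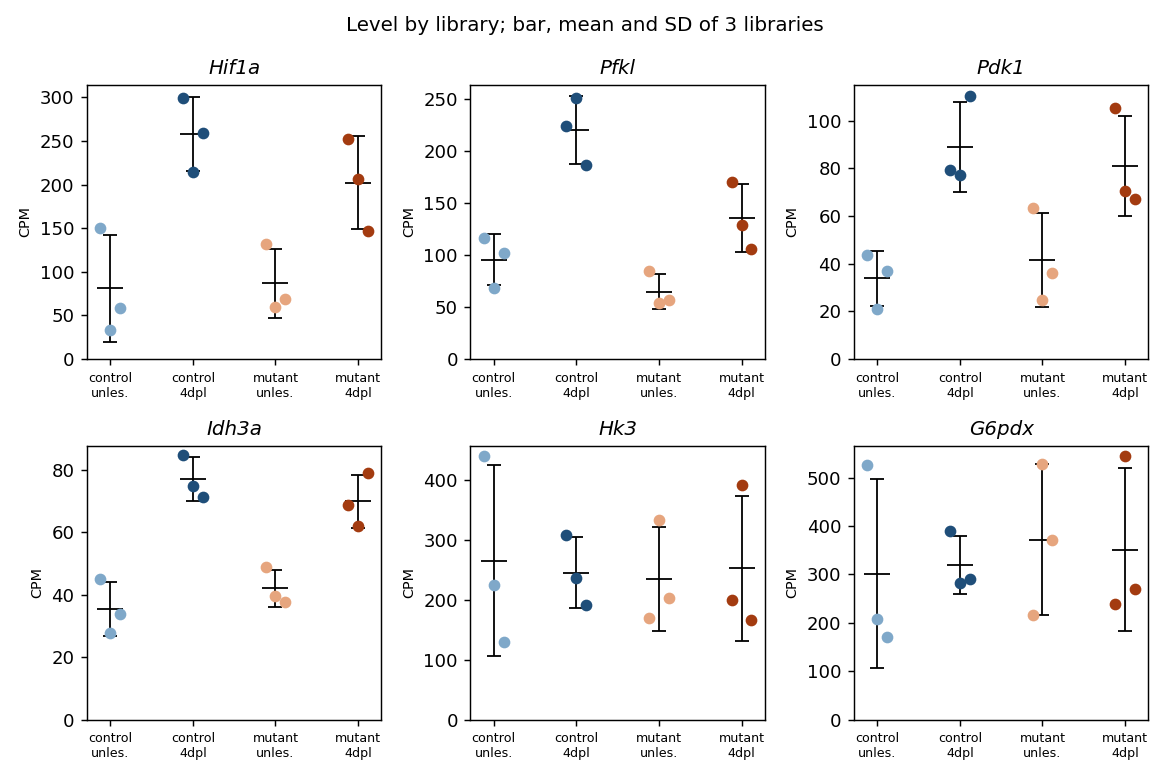
CPM of 6 genes in each library (points), by group, with the mean and SD of 3 libraries (black bars). Idh3a and Pdk1 do not overlap between conditions, Hif1a and Pfkl overlap between conditions across the genotypes but not within either, and Hk3 and G6pdx overlap in both genotypes.

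In upper glycolysis, Pfkl, the liver-type subunit of phosphofructokinase, which commits sugar to glycolysis, lies on chromosome 10 from 77986947 to 78010083. It was at 116, 68.3 and 102 CPM in unlesioned and 224, 251 and 186 CPM in 4dpl control libraries, and at 84.3, 53.4 and 56.6 and 170, 128 and 106 CPM in the mutant. Conditions did not overlap within either genotype. Pfkl rose by 1.13 on the log2 scale (standard error 0.20, edgeR adjusted p = 0.00298). The muscle-type subunit Pfkm, with a mean of 16.4 CPM, rose by 0.55 (standard error 0.18). The platelet-type subunit Pfkp had a log2 change of -0.05 (standard error 0.26), its highest level, 133 CPM, being in control unlesioned replicate 1.

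Tpi1, the triose phosphate isomerase, was at 330, 207 and 224 CPM in unlesioned and 473, 539 and 424 CPM in 4dpl control libraries, and at 143, 175 and 155 and 363, 327 and 234 CPM in the mutant. The mutant libraries lay below those of the control in both conditions, without overlap, and within each genotype all libraries at 4dpl were above the unlesioned ones. Tpi1 rose by 0.94 (standard error 0.18, edgeR adjusted p = 0.00413). The aldolases Aldoa and Aldoc rose by 0.65 (standard error 0.20) and 0.92 (standard error 0.24), and in the mutant Aldoc was high in 1 library, replicate 3 at 272 CPM against 112 and 113 CPM. Gpi1, the glucose-6-phosphate isomerase, had a log2 change of -0.11 (standard error 0.28).

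The hexokinases, which trap glucose in the cell, were not called. Hk2, the regulated form, was at 88.7, 75.4 and 86.8 CPM in unlesioned and 86.5, 126 and 117 CPM in 4dpl control libraries, and at 71.0, 89.0 and 67.2 and 101, 93.4 and 89.3 CPM in the mutant. Its log2 fold change of 0.36 (standard error 0.15) missed the threshold (edgeR, adjusted p = 0.0677). Hk1, the housekeeping form, had a log2 change of 0.34 (standard error 0.23), and Hk3, a form known from myeloid cells, of -0.00 (standard error 0.31).

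In the lower part of glycolysis 1 of 6 genes was called. Pgam1, the phosphoglycerate mutase, was at 162, 95.6 and 102 CPM in unlesioned and 210, 203 and 158 CPM in 4dpl control libraries, and at 67.9, 115 and 82.5 and 144, 166 and 113 CPM in the mutant. Control unlesioned replicate 1 overlapped the libraries at 4dpl, as did mutant unlesioned replicate 2, and Pgam1 rose by 0.67 (standard error 0.20, edgeR adjusted p = 0.0172). Retrocopies of Pgam1 held up to 2.62% of its counts. Gapdh, Pgk1, Eno1, Eno2 and Pkm were not called, with log2 fold changes from 0.43 for Pkm to 0.57 for Gapdh, each positive and close to the median of genes with at least 10 CPM.

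Of the lactate dehydrogenases, Ldhb, the heart-type subunit, was at 164, 181 and 201 CPM in unlesioned and 222, 320 and 358 CPM in 4dpl control libraries, and at 242, 125 and 176 and 300, 242 and 354 CPM in the mutant. Ldhb rose by 0.72 (standard error 0.20, edgeR adjusted p = 0.014). Ldha, the muscle-type subunit, had a log2 change of 0.58 (standard error 0.26) and was not called. The fold changes of the pair differed by less than either standard error.

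Among the 19 other glycolytic and gluconeogenic genes, 2 were called higher, Pgm1 and G6pc3, and 1 lower. The latter was Pck1, the cytosolic phosphoenolpyruvate carboxykinase, at a mean of 0.29 CPM. Of the bifunctional enzymes that set the level of fructose-2,6-bisphosphate, Pfkfb3, known for its high kinase activity, was at 102, 57.6 and 76.5 CPM in unlesioned and 134, 162 and 170 CPM in 4dpl control libraries, and at 125, 62.7 and 89.1 and 156, 124 and 122 CPM in the mutant. Pfkfb3 rose by 0.76 (standard error 0.20, edgeR adjusted p = 0.0109), and mutant unlesioned replicate 1 overlapped the mutant libraries at 4dpl. Pfkfb4 had a log2 change of -0.11 (standard error 0.28). Tigar, which opposes them by removing fructose-2,6-bisphosphate, rose by 1.09 (standard error 0.24) from a low level, its mean being 6.58 CPM.

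Of the pentose phosphate genes, 0 of 3 in the oxidative and 0 of 3 in the non-oxidative branch were called by edgeR in either direction. G6pdx, the glucose-6-phosphate dehydrogenase that opens the pathway, was at 526, 209 and 171 CPM in unlesioned and 389, 282 and 290 CPM in 4dpl control libraries, and at 217, 527 and 372 and 240, 544 and 270 CPM in the mutant. The highest values were those of control unlesioned replicate 1, mutant unlesioned replicate 2 and mutant 4dpl replicate 2, so that conditions overlapped, and the log2 fold change was 0.00 (standard error 0.32). Pgd, the next dehydrogenase of the pathway that makes NADPH, had 0.04 (standard error 0.27), and the transaldolase Taldo1 and transketolase Tkt of the non-oxidative branch had 0.01 (standard error 0.23) and -0.11 (standard error 0.25).

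Pgls, the lactonase between the dehydrogenases, was at 79.2, 97.5 and 76.7 CPM in unlesioned and 76.8, 92.0 and 76.3 CPM in 4dpl control libraries, and at 46.3, 66.8 and 59.3 and 68.8, 85.8 and 72.9 CPM in the mutant. The control libraries overlapped between conditions, those of the mutant did not, and the log2 fold change over both was 0.18 (standard error 0.15, edgeR adjusted p = 0.345). Rpia, the ribose-5-phosphate isomerase, had the lowest level of the 38 per base of length. It was at 4.02, 7.90 and 7.68 CPM in unlesioned and 4.20, 2.38 and 2.53 CPM in 4dpl control libraries, and at 2.93, 6.06 and 4.26 and 4.14, 3.65 and 2.90 CPM in the mutant. Its log2 fold change was -0.71 (standard error 0.27), with an edgeR p-value of 0.0185 that missed 0.01. Rpia was called lower with DESeq2, RLE size factors, voom, library totals or at least 10 counts in every library, and in 2 of the 12 fits with a library left out.

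Of the 8 other pentose phosphate genes, 2 were called higher and 1 lower. Prps2, a ribose phosphate pyrophosphokinase that uses the pathway's product for nucleotides, rose by 1.42 (standard error 0.27), and its paralog Prps1 by 0.60. Tktl2, a transketolase relative at a mean of 0.93 CPM, fell by 2.45 on the log2 scale.

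The order of libraries within a group was set beside that of the neutrophil markers. In at least 3 of the 4 groups, 18 of the 38 genes were highest in the library with the highest neutrophil sum, against 13.9% of genes with at least 10 CPM. These were all 6 pentose phosphate genes, 5 of 6 of lower glycolysis, 3 of 7 of upper glycolysis, 2 of 3 hexokinases, Pfkfb4 and 1 of 8 citrate cycle genes, Mdh2. With the log2 neutrophil sum as a covariate, an alternative chosen after seeing the data, 20 of the 38 and 9.05% of all genes tested were called higher over both genotypes. In that fit Hk3 had a log2 fold change of 0.53, Gpi1 of 0.47, G6pdx of 0.60 and Pgd of 0.52, none of these 4 being called. Other summed markers had a similar order. The infiltrating and border macrophage and the B and T lymphocyte sums were highest in control unlesioned replicate 1 (18150 and 368.8 CPM). G6pdx was highest there too, whereas the neutrophil sum was highest in replicate 2 (90790 CPM). In each other group the macrophage, lymphocyte and neutrophil sums were highest in the same library. The part of neutrophil RNA in these levels was otherwise not tested, and that of macrophage and lymphocyte RNA was not tested.

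**Figure D3:**
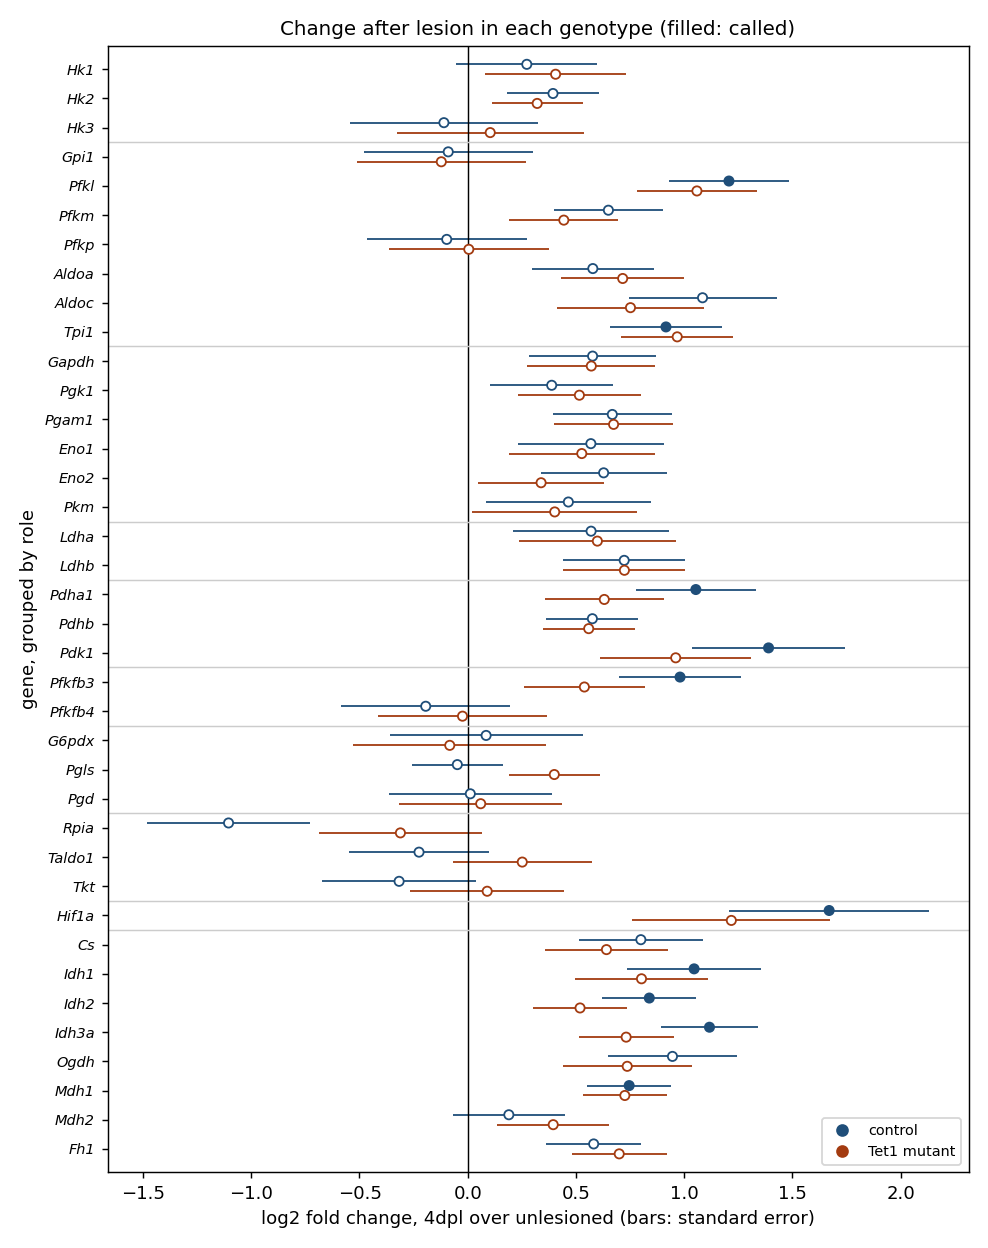
Log2 fold change of each gene at 4dpl over unlesioned tissue in the control (blue) and the Tet1 mutant (orange), with standard errors; filled points were called within that genotype. The standard errors of the genotypes overlap for most genes, 10 points are filled in the control and 0 in the mutant.

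Hif1a, the oxygen-regulated transcription factor subunit known to induce glycolytic genes and Pdk1, lies on chromosome 12 from 73901375 to 73947530 and showed the largest log2 fold change of the 38. It was at 151, 33.7 and 58.6 CPM in unlesioned and 300, 214 and 259 CPM in 4dpl control libraries, and at 132, 59.4 and 69.3 and 253, 207 and 146 CPM in the mutant. In each genotype unlesioned replicate 1 was the highest of its group, and mutant 4dpl replicate 3, at 146 CPM, lay just under the highest unlesioned library. Hif1a rose by 1.44 on the log2 scale (standard error 0.33, edgeR adjusted p = 0.00649). Its protein is controlled largely by breakdown, which RNA counts do not show.

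Of 18 other genes of the hypoxia pathway and its known targets, 7 were called higher and 0 lower. In the same comparison 40.9% of genes with at least 10 CPM were called higher. The median log2 fold change was 0.44 over these 18 genes and 0.47 over genes with at least 10 CPM. Bnip3, a mitophagy receptor, rose by 0.93 (standard error 0.17), P4ha1, a collagen prolyl hydroxylase, by 1.30 (standard error 0.28), and Car9, a carbonic anhydrase with a mean of 2.71 CPM, by 1.49 (standard error 0.32). Vegfa, the vascular growth factor, had a log2 change of 0.39 (standard error 0.34), Egln3 of 0.39 (standard error 0.22) and Ndrg1 of 0.47 (standard error 0.25), and these were not called.

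The sequence before the RefSeq starts of each gene was searched for ACGTG, the core of the hypoxia response element. Both strands were searched in 250 bases of the RefSeq promoter windows of GRCm38.p6. These windows can lie inside the Ensembl gene interval, as those of Hif1a and Ldha do. The E-box CACGTG holds ACGTG on both strands and was counted on each. Windows were found for 37 of the 38 genes (none for Idh3a), and 13 of these, or 35.1%, held ACGTG in at least 1 window, against 26% of genes with at least 10 CPM. By window the shares were 36.8% of 57 windows, several of which overlap, 22.1% of windows of genes with at least 10 CPM and 16.6% of all 32851 windows. The windows differ in base composition, with a median GC content of 59.6% for these genes, 60% for genes with at least 10 CPM and 52.4% for all. Among genes called over both genotypes 8 of 18 held the letters, and among those not called 5 of 19. The windows shown are those of Hif1a, of Pfkfb3 as a called gene with matches, of Ldha and Pgk1 as genes with matches that were not called, and of Pfkl as a called gene without one. Bases are given 5′ to 3′ on the strand of the gene, and capitals mark ACGTG or its complement CACGT.
Hif1a, chr12:73907617-73907866, plus strand: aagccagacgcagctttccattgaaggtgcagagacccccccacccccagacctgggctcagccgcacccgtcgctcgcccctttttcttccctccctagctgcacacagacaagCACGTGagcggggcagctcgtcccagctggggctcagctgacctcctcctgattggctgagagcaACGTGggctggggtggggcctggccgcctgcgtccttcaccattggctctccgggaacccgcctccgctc
Pfkfb3, chr2:11502091-11502340, minus strand: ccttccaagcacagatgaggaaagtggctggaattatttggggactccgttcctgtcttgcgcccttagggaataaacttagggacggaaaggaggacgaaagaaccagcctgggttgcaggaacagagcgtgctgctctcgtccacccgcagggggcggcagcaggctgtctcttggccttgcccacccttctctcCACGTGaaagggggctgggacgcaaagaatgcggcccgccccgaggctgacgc
Pfkfb3, second window, chr2:11553930-11554179, minus strand: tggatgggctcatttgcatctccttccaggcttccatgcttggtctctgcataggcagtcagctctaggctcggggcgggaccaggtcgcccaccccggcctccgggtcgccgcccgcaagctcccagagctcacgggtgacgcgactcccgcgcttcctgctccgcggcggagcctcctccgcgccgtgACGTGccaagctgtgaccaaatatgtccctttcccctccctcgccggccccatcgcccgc
Ldha, chr7:46845554-46845803, plus strand: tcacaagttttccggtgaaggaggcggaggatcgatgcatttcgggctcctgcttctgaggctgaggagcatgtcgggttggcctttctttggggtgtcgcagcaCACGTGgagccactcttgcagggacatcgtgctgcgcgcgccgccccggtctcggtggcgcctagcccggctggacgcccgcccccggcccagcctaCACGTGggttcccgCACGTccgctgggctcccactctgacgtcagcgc
Pgk1, chrX:106186850-106187099, plus strand: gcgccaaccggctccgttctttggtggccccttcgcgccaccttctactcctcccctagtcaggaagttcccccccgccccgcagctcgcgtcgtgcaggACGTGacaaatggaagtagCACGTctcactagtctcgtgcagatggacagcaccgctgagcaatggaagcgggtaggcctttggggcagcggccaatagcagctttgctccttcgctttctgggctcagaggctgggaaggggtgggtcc
Pfkl, chr10:78009808-78010057, minus strand: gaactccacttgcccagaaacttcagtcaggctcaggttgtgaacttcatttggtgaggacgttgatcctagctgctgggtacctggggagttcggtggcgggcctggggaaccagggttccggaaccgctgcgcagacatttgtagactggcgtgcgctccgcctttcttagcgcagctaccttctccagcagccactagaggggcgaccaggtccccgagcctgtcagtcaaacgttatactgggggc
Ldha held 5 matches in the window shown, at 145, 144, 48, 47 and 34 bases before the start, and 0 in its second window at chr7:46846832-46847081, which is not shown, and Pgk1 held 2, while Pfkl, whose change was larger than that of either, held none in this window. A match is a run of letters and not evidence of binding.

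Within the control alone, 10 of the 38 genes were called higher at 4dpl and 0 lower, where 5.12% of all genes tested and 14.7% of those with at least 10 CPM were called higher, and 5.01% and 0.724% lower. They were Pfkl, Tpi1, Pdha1, Pdk1, Pfkfb3, Hif1a, Idh1, Idh2, Idh3a and Mdh1. The largest rise was that of Hif1a, with a log2 fold change of 1.67 (standard error 0.46, edgeR adjusted p = 0.0426), and Idh3a had the smallest adjusted p-value (log2 fold change 1.12, standard error 0.22, edgeR adjusted p = 0.0256). These calls lay close to the threshold. Leaving out control unlesioned replicate 2 or 3, or 4dpl replicate 1 or 2, left 0 of the 38 called. Leaving out unlesioned replicate 1 gave 19. With the neutrophil sum as a covariate 0 were called in the control. The median log2 fold change of the 38 was not smaller in that fit, at 0.73 against 0.58 without the covariate. The calls over all genes moved likewise, with 0.003% to 0.249% of genes called higher in the 4 fits without any of the 38, 12.2% without unlesioned replicate 1 and 0.0% with the covariate.

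Within the mutant, 0 of the 38 genes were called in either direction by edgeR, where 0.0225% of all genes tested were called higher and 0.113% lower, and 0.062% and 0.0724% of genes with at least 10 CPM. At an unadjusted p-value under 0.05 there were 17 of the 38 in the mutant (33.8% of all genes) and 20 in the control (34.0%). DESeq2 called 3 of the 38 higher (2.2% of all genes), the newer quasi-likelihood option 4 (4.42%) and voom with sample weights 18 (11.2%). The median log2 fold change of the 38 was 0.53 in the mutant and 0.58 in the control, where genes with at least 10 CPM had 0.54 and 0.40. These medians depended on the setting. Without TMM scaling the 38 had 0.06 in the mutant and 0.28 in the control, and all genes -0.66 and -0.70. With at least 10 counts in every library the 38 had 0.22 and 0.33, and all genes 0.06 and -0.05. The comparisons in the 2 genotypes share no library, and 18 of the 38 genes were separated between conditions in each, against 16.5% of all genes in the control and 18.8% in the mutant. Among genes with at least 10 CPM the shares were 42.1% and 51.0%, and 48.6% of the 37 in each genotype. Idh3a, for example, had a log2 change of 0.73 (standard error 0.22, edgeR adjusted p = 0.0655) in the mutant.

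The change after lesion was then compared between the genotypes as an interaction, which was called for 0.0% of genes tested and 0 of the 38 by edgeR. At an unadjusted p-value under 0.05 there were 0 of the 38 (3.81% of all genes), DESeq2 called 0, and voom with sample weights called 0 with 4 under 0.05. The interaction estimate for Pgls was 0.45 (standard error 0.30, edgeR adjusted p = 0.9999), and that for Rpia was 0.79 (standard error 0.53, edgeR adjusted p = 0.9999), these having the smallest p-values of the 38. For Hif1a it was -0.45 with a standard error of 0.64, so that the data leave room for a sizeable difference in either direction.

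Between genotypes in the same condition, 0 of the 38 genes were called, either unlesioned or at 4dpl, where 0.0% of genes tested were called in each. In unlesioned tissue 2 genes had an unadjusted p-value under 0.05 by edgeR, as did 5.22% of all genes. Tpi1 was lower in the mutant by a log2 difference of -0.69 (edgeR adjusted p = 0.809), and Pgls by -0.56 (edgeR adjusted p = 0.824), all 3 mutant libraries lying below all 3 controls for each. At 4dpl Pfkl and Tpi1 had an unadjusted p-value under 0.05, as did 6.92% of all genes, with log2 differences of -0.71 (edgeR adjusted p = 0.557) and -0.64 (edgeR adjusted p = 0.595), again without overlap between libraries. DESeq2 called 0 of the 38 in both comparisons.

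Isozymes were compared within a library as the ratio of counts per base of gene length, which does not depend on the size of the library. The conditions were compared by an exact two-sided permutation of the lesion labels within genotype, with 0.005 the smallest p-value possible, and 0 of 10 ratios passed after Benjamini-Hochberg adjustment. The nearest was that of Mdh1 to Mdh2. In unlesioned libraries it was 0.721, 0.815 and 1.24 in the control and 1.26, 0.794 and 1.13 in the mutant, and at 4dpl it was 1.23, 1.27 and 1.38 and 1.49, 1.05 and 1.41. The difference was 0.43 on the log2 scale (exact permutation p = 0.045, adjusted p = 0.238). The ratio of Pfkfb3 to Pfkfb4 differed by 0.83 (exact permutation p = 0.06, adjusted p = 0.238), that of Pfkl to Pfkm by 0.60 (exact permutation p = 0.075, adjusted p = 0.238) and that of Hk3 to Hk1 by -0.35 (exact permutation p = 0.095, adjusted p = 0.238). Ldha to Ldhb differed by -0.13 (exact permutation p = 0.75, adjusted p = 0.89), its ratios at 4dpl running from 0.607 to 2.33 and those in unlesioned tissue from 0.751 to 2.98.

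**Figure D4:**
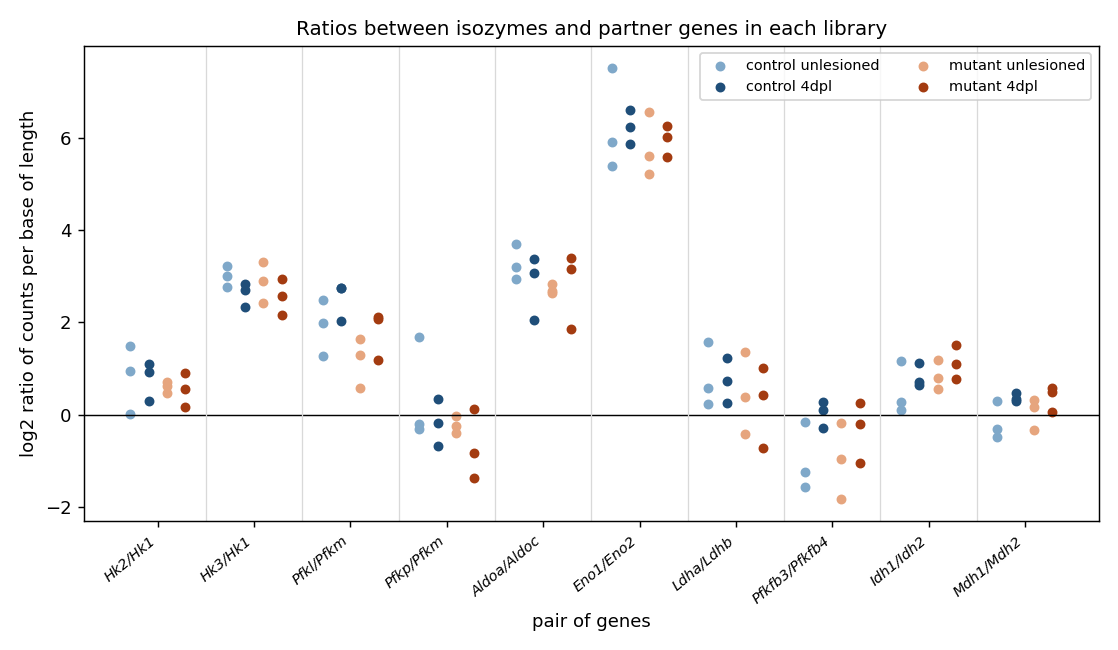
Log2 ratio of counts per base of length for 10 pairs of genes, 1 point per library, coloured by group. The conditions overlap for every pair. For Mdh1/Mdh2 and Pfkfb3/Pfkfb4 all 6 libraries at 4dpl lie above the median of the 6 unlesioned libraries, while for Ldha/Ldhb 3 lie above it and 3 below.

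**Figure D5:**
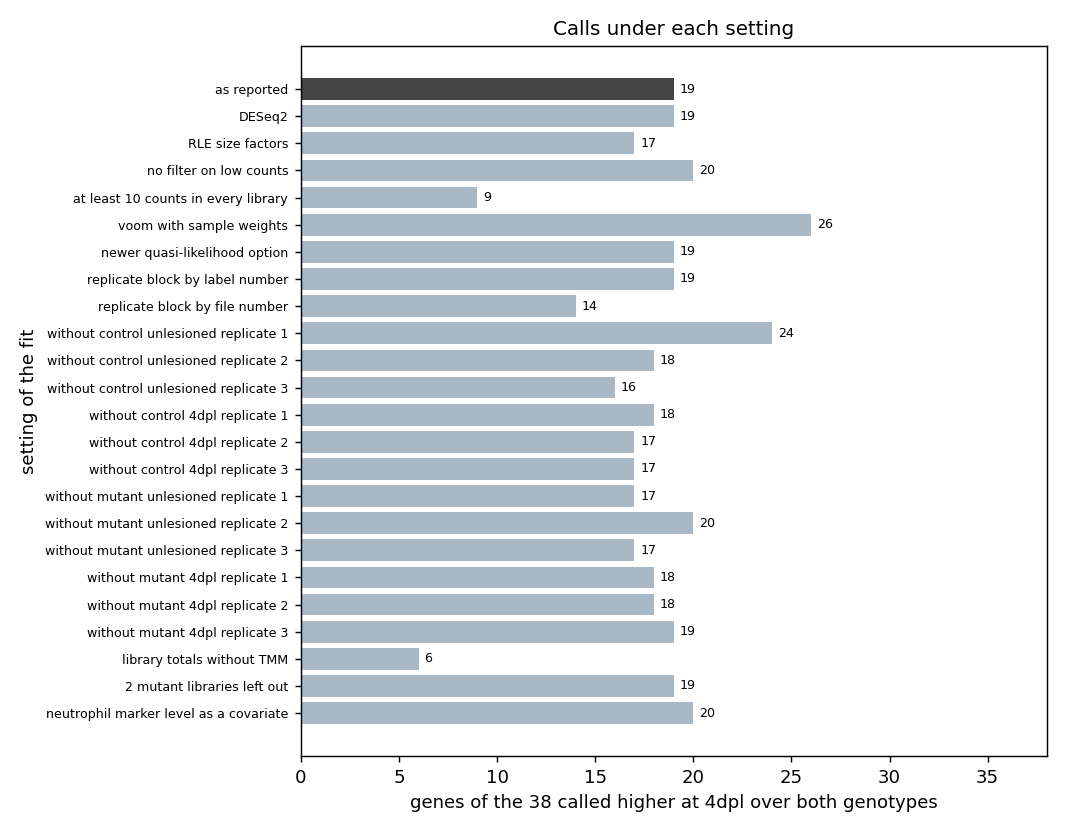
Number of the 38 genes called higher at 4dpl over both genotypes (bars) under the fit as reported and each other setting. Most settings give 14 to 26 calls, a filter of at least 10 counts in every library gives 9, and library totals without TMM give 6.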

How the data were processed

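The authors counted reads on the exons of Ensembl genes of GRCm38 (mm10) with featureCounts and deposited these counts per gene without normalization. The methods name BWA as the aligner and DESeq2 for testing, whereas the submitters' processing notes name STAR, and the discrepancy was not resolved. No read was counted on any of the 37 mitochondrial genes. Gene lengths are those listed beside the deposited counts.

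Counts were filtered with filterByExpr, normalized by TMM and fitted in edgeR 4.0.16 (R 4.3.3) over all 12 libraries with 1 mean a group, and tested by quasi-likelihood. Alternatives were DESeq2 1.42.0, limma 3.58.1 with voom and sample weights, other filters and scalings, replicate blocks and leaving out each library. Replicate numbers are those of the labels. Values in every library are given for Hif1a, the 12 smallest p-values for lesion over both genotypes, the smallest in each role, and the 2 smallest for each comparison of genotypes. Aldoa has a second identifier, and the one with more counts was used. The genes and lists were chosen with earlier results of these data known. Each type of fit was tested on simulated data.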

Additional observations from a re-analysis of the deposited data

How the results depend on the processing

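The number of genes called higher over both genotypes lay between 14 and 26 except in 2 settings, and between 16 and 24 with a library left out. The exceptions were at least 10 counts in every library (9, with 10.5% of all genes) and library totals (6, with 2.56%). The 26 were called with voom, where 20.5% of all genes were called higher. Rpia was the 1 gene called lower with DESeq2, RLE size factors, at least 10 counts, voom or library totals, the number being 0 to 1 with a library left out. In the control the number called higher was 4 with at least 10 counts (3.87% of all genes) and 3 with the groups compared alone (2.39%). It was 23 with voom (15.5%), 4 on library totals (1.52%), 0 with the neutrophil covariate (0.0%) and 0 to 19 with a library left out. The number called lower in the control was 1 with DESeq2, voom, the newer quasi-likelihood option and library totals and 0 to 1 with a library left out. In the mutant the number called higher was 3 with DESeq2 (2.2% of all genes), 18 with voom (11.2%) and 4 with the newer option (4.42%). It was 0 to 11 with a library left out, the 11 without control unlesioned replicate 1, where 7.72% of all genes were called higher. Library totals, the neutrophil covariate and leaving out mutant unlesioned replicate 2 with mutant 4dpl replicate 3 were chosen after seeing the data. The cause of these changes was not tested. The smallest count of any of the 38 genes in a library was 110, for Rpia.

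Unlesioned tissue came from the opposite side of the cord, so that libraries may share mice. The labels do not say which do, and the main fit treated all libraries as independent. Deviations from the group means were correlated across genes between same-numbered libraries. The values were 0.189, 0.0517 and 0.189 in the control and -0.0301, 0.0728 and -0.0703 in the mutant. By file number they were -0.0891 and -0.0228 in the control and -0.0301 and -0.0876 in the mutant. Not every pair of numbers was compared, so that pairing was left undecided. A replicate block by the number in the labels gave 19 genes called higher over both genotypes (15.6% of all genes) and 12 in the control (7.51%). The difference in Pfkfb3/Pfkfb4 was 0.832 by construction with or without this block. With it the exact permutation p was 0.0312, the smallest that sign flips within 6 pairs can give. With the file number as a replicate block the numbers were 14 and 6.

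The sign of 12 genes that were not called changed with the setting. On library totals the log2 fold change was -0.024 for Hk1, -0.046 for Hk2, -0.366 for G6pdx, -0.239 for Pgls, -0.34 for Pgd, -0.383 for Taldo1 and -0.098 for Mdh2. With at least 10 counts in every library it was -0.28 for G6pdx, -0.127 for Pgls, -0.252 for Pgd and -0.284 for Taldo1. With DESeq2 it was -0.09 for G6pdx, -0.055 for Pgd and -0.08 for Taldo1, and with RLE -0.098, -0.064 and -0.088 for the same genes. Without a filter it was 0.087 for Hk3 and 0.046 for Pfkp, and with voom 0.254 for Hk3, 0.271 for Pfkp and 0.149 for Pfkfb4. Under the replicate block by label it was 0.052 for Hk3 and 0.029 for Pfkp, and with the file number 0.143 for Hk3, 0.221 for Pfkp, 0.084 for Pfkfb4 and 0.001 for Tkt. With both mutant libraries left out it was 0.291 for Hk3, 0.127 for Gpi1, 0.099 for Pfkp, 0.067 for Pfkfb4 and 0.031 for Tkt. With the neutrophil covariate it was 0.527 for Hk3, 0.467 for Gpi1, 0.206 for Pfkp, 0.333 for Pfkfb4 and 0.373 for Tkt.

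With a library left out, the log2 fold change ran from -0.21 to 0.314 for Hk3, -0.302 to 0.078 for Gpi1, -0.168 to 0.34 for Pfkp, -0.272 to 0.246 for Pfkfb4, -0.206 to 0.362 for G6pdx, -0.117 to 0.269 for Pgd, -0.085 to 0.144 for Taldo1 and -0.231 to 0.061 for Tkt. The ratios ran from -0.252 to 0.117 for Hk2/Hk1, -0.467 to -0.244 for Hk3/Hk1, 0.438 to 0.754 for Pfkl/Pfkm, -0.329 to 0.055 for Aldoa/Aldoc, -0.163 to 0.371 for Eno1/Eno2, -0.347 to 0.107 for Ldha/Ldhb, 0.622 to 1.04 for Pfkfb3/Pfkfb4, 0.19 to 0.455 for Idh1/Idh2 and 0.327 to 0.54 for Mdh1/Mdh2.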
